A study of Mus musculus with 6 samples.

Results

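Pluripotent mouse cells are held in the naive state by a set of transcription factors that activate one another and the genes of the inner cell mass. The 10 genes described here, *Klf2*, *Klf4*, *Klf5*, *Esrrb*, *Tfcp2l1*, *Tbx3*, *Nr0b1*, *Zfp42*, *Prdm14* and *Nr5a2*, are the rows of the count table that carry these names, out of 54715 genes in all. Their levels were compared between wild type (WT) advanced embryonic stem cells (ASCs) and *Bdh2*-knockout ASCs, with 3 RNA-Seq libraries of each genotype. ASCs are mouse pluripotent cells that are described as lying between the naive state of embryonic stem cells and the primed state of the later epiblast. *Bdh2* encodes a 3-hydroxybutyrate dehydrogenase with a part in siderophore synthesis and iron handling. The cells came from a cross of 129/sv females with males of the GOF/GFP strain, whose GFP is driven by *Oct4* sequences, and both genotypes were grown in medium with activin A, BMP4, CHIR99021 and LIF. The knockout was made with CRISPR/Cas9 and a pair of sgRNAs near the start codon, and lines were grown from single colonies, of which the study took 1 ASC line with a bi-allelic deletion further. The labels do not say which line the knockout libraries came from, or whether the 3 libraries of a genotype were separate cultures, so the p-values measure the spread between these libraries, which may be technical.

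The factors take their input from the signals in this medium. LIF acts through STAT3, which activates *Klf4* and *Tfcp2l1* in mouse embryonic stem cells, and CHIR99021 inhibits GSK3, which stabilizes beta-catenin and relieves the repression of *Esrrb* and other genes by TCF7L1. FGF and ERK signalling pushes the cells in the other direction, toward the formative and primed epiblast. In mouse embryonic stem cells the factors are partly redundant, so that the loss of one is often buffered by the rest, with the Krüppel-like trio as the best-known case.

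To show the control sequence that goes with these genes, the promoters of 3 members are printed. They are the one with the largest change (*Nr0b1*), the one highest relative to exon length (*Zfp42*) and one with a repeated motif (*Tfcp2l1*). Each window runs from 250 bases before to 50 bases after the annotated start, 5′ to 3′ on the strand of the gene, and was taken from RefSeq on GRCm38.p6. Capitals mark matches to any of 6 motifs searched on both strands. These lie at chrX:86191525-86191824 on the plus strand for *Nr0b1*, chr8:43306960-43307259 on the minus strand for *Zfp42* and chr1:118627695-118627994 on the plus strand for *Tfcp2l1*.
Nr0b1: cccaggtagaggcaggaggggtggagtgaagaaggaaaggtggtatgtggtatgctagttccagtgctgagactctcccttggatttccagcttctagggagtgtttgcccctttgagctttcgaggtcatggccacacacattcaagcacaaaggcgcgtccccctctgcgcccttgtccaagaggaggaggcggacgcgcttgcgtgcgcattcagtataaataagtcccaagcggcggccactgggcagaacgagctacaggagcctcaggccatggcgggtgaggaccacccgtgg
Zfp42: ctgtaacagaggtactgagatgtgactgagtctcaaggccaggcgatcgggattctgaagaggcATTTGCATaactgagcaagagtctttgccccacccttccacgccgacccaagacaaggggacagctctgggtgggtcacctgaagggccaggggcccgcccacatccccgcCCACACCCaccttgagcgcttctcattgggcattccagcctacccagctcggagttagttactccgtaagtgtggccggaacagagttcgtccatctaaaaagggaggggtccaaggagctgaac
Tfcp2l1: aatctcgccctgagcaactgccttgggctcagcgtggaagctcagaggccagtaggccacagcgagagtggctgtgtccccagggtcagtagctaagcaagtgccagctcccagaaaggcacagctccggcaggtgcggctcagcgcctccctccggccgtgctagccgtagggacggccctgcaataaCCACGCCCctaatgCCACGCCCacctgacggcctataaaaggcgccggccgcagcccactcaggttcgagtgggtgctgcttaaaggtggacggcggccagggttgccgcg

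The *Zfp42* window held the POU octamer ATGCAAAT, which here reads ATTTGCAT, 186 bases before the start, and the KLF-type letters GGGTGTGG, here CCACACCC, 75 bases before it. The octamer occurred in 1.74% of all 32851 windows of the same length and GGGTGTGG in 3.56%. *Tfcp2l1* held GGGCGTGG, the other KLF-type motif, which reads CCACGCCC here, at 61 and at 47 bases before the start, and 5.33% of all windows held it. It also occurred once in the second of the 2 windows of *Nr5a2*. No match to the ESRRB-type motif TCAAGGTCA (0.423% of all windows), the STAT motif TTCCNGGAA (1.15%) or the TCF motif ATCAAAG (3.73%) was found in the 9 windows of the 7 members that were in the table. These were *Klf2*, *Klf4*, *Esrrb*, *Tfcp2l1*, *Nr0b1*, *Zfp42* and *Nr5a2*, and the members without a window were *Klf5*, *Tbx3* and *Prdm14*. A match describes the letters of the window and shows no binding.

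The libraries held 18927748 to 28333541 counts on genes. At this depth 3 counts are 0.106 to 0.158 CPM, the count relative to the size of the library, and the 10 members had between 143 and 18255 counts in every library, so each was far above that floor. The targeted gene *Bdh2* (ENSMUSG00000028167) had 203, 193 and 209 counts in the WT libraries and 164, 136 and 129 in the knockout libraries, and its normalized level fell to 57.7% of WT (log2 fold change -0.79 ± 0.12 SE, adjusted p = 2.46e-04, edgeR). A small deletion can leave most of a transcript in place to be counted, so the count is only a partial check of the edit. By RT-qPCR the study reports a lower remainder of *Bdh2* mRNA in its edited ASC lines, and it could barely detect the protein. The reason for the difference from the counts was not tested. Transcripts of adult hepatocytes, which a culture of pluripotent cells should lack, differed between libraries. The summed level of 18 such genes was 538, 326 and 39.2 CPM in WT replicates 1, 2 and 3 and 29.8, 146 and 16.9 CPM in knockout replicates 1, 2 and 3, and none of the 18 stayed at or under 3 counts in all libraries. Results are given below with the level of these transcripts as a covariate and with only the libraries that had few of them.

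Of the 10 naive factors, 8 were higher in *Bdh2*-knockout ASCs than in WT ASCs (80%), 0 were lower and 2, *Zfp42* and *Klf5*, were not called. The threshold was an adjusted p under 0.05 in edgeR's quasi-likelihood test, with CPM scaled by TMM (trimmed mean of M-values) factors and p-values adjusted by Benjamini-Hochberg over 16758 genes. With the same rule 41.7% of all tested genes were called, 21% as higher and 20.8% as lower. Of these calls 50.3% were higher, whereas with library totals in place of TMM 38.0% were (2731 higher, 4451 lower) and 5 members were called. The median log2 fold change of the members was 0.23, compared with -0.01 over all tested genes. In size, however, they were ordinary, since the median of the unsigned log2 fold change was 0.23 for the members and 0.23 for all tested genes. The changes ran from -0.04 (*Klf5*) to 0.67 (*Nr0b1*), which is 97.1% to 159% of the WT level, and none of them reached a doubling.

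**Figure D1:**
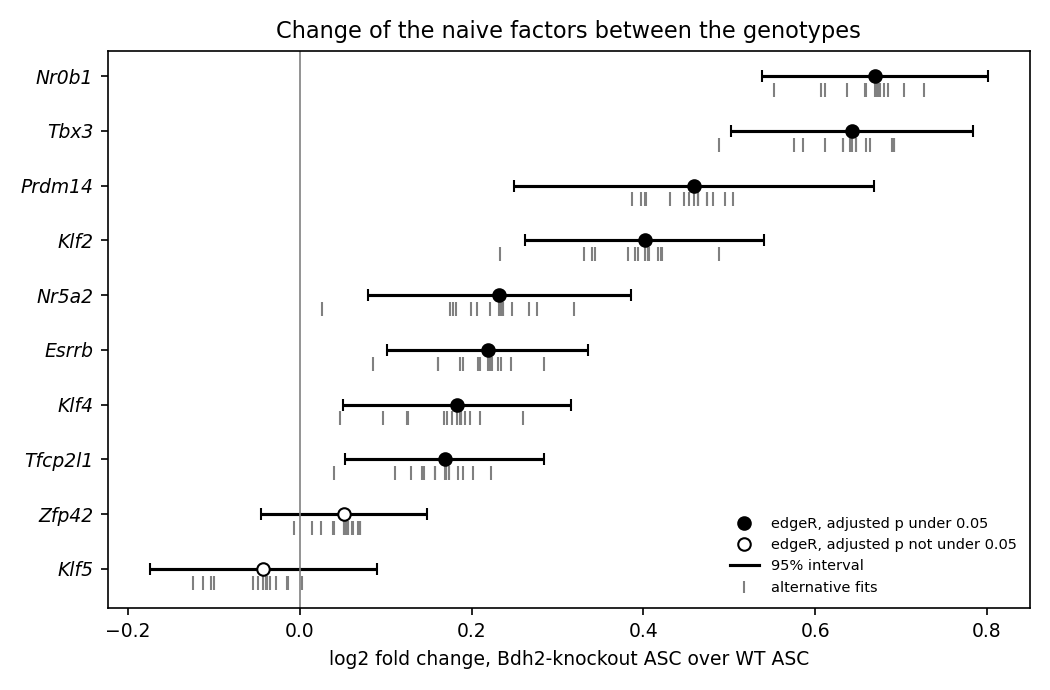
Log2 fold change of each naive factor, *Bdh2*-knockout over WT ASCs (x axis), with one row per gene. Circles are edgeR estimates with their 95% intervals, filled where the adjusted p is under 0.05, and grey ticks are the 16 alternative fits. *Nr0b1*, *Tbx3*, *Prdm14* and *Klf2* lie between 0.40 and 0.67, and the next 4 genes between 0.17 and 0.23.

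The 8 increases differed in how they held up under other fits. *Nr0b1*, *Tbx3*, *Prdm14* and *Klf2* kept their call with the level of the hepatocyte transcripts as a covariate, and *Nr5a2*, *Esrrb*, *Klf4* and *Tfcp2l1* lost it. With the covariate over all 6 libraries the log2 fold changes of the latter 4 were 0.20, 0.16, 0.10 and 0.14. A further fit used only the 3 libraries that had the fewest of these transcripts (WT replicate 3, knockout replicates 1 and 3, where the lone WT library is assumed to vary like the others). In it the log2 fold changes of the same 4 were 0.03, 0.08, 0.05 and 0.04. Among the 4 larger ones *Klf2* went from 0.40 to 0.23 in that fit. The lone WT library was the highest WT library for all 10 members, which by itself lowers the fold changes. That choice and the hepatocyte transcripts cannot be told apart in this fit. With a minimum fold change of 1.2 as the null hypothesis *Nr0b1*, *Tbx3* and *Klf2* (adjusted p = 0.0459, edgeR) passed and *Prdm14* missed the threshold (adjusted p = 0.0565). Leaving out single libraries gave 5 to 8 calls, with 5 without WT replicate 1, without WT replicate 2 and without knockout replicate 2.

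Among the nuclear receptors, *Nr0b1* showed the largest change of all members. It encodes DAX1, an orphan receptor without a DNA-binding zinc finger domain, which works with OCT4 and NR5A2 in embryonic stem cells. The gene (ENSMUSG00000025056) lies on chromosome X of GRCm38 from 86191764 to 86195947. Its normalized level was 99.1, 88.9 and 105 CPM in WT replicates 1 to 3 and 157, 158 and 150 CPM in the knockout replicates, so the groups were well apart. The means were 97.5 ± 8.01 and 155 ± 4.21 CPM (SD, n = 3), with a log2 fold change of 0.67 ± 0.06 (SE, 95% interval 0.54 to 0.80, adjusted p = 3.37e-06, edgeR). It stayed called in all 16 alternatives, with log2 fold changes of 0.55 to 0.73.

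*Esrrb* encodes an orphan receptor that binds its sites as a monomer and can stand in for *Nanog* in reprogramming. The gene (ENSMUSG00000021255) is on chromosome 12 from 86361117 to 86521628. It had 539, 542 and 613 CPM in the WT libraries and 646, 669 and 657 CPM in the knockout libraries. WT replicate 3 was thus nearer to the knockout libraries than to the other WT libraries. Its log2 fold change was 0.22 ± 0.05 (95% interval 0.10 to 0.34, adjusted p = 0.00586, edgeR), and the means were 565 ± 41.9 and 657 ± 11.9 CPM. The call was lost in 3 of the 16 alternatives.

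*Nr5a2* encodes LRH-1, a receptor that can drive *Pou5f1* and that is also a main regulator of bile acid and cholesterol genes in liver. The gene (ENSMUSG00000026398) is on chromosome 1 from 136842571 to 136960448. Its levels were 73.6, 70.6 and 84.8 CPM in the WT libraries and 87.1, 96.4 and 85.8 CPM in the knockout libraries, where WT replicate 3 came within 1 CPM of the lowest knockout library. The log2 fold change was 0.23 ± 0.07 (adjusted p = 0.0186, edgeR), and 7 of the 16 alternatives lost the call. FPKM is the library-total CPM, without TMM, per kilobase of the listed length of the gene. For *Nr0b1* against *Esrrb*, the ratio of their FPKM was 0.578 ± 0.0338 in WT and 0.790 ± 0.0236 in knockout libraries (p = 0.1 in the exact permutation test, which cannot go lower with 3 libraries a group). This pair and the other pairs below were chosen after their values were seen.

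The Krüppel-like factors bind GC-rich sites next to OCT4, SOX2 and NANOG and are the classic example of redundancy in this network. *Klf2* (ENSMUSG00000055148, chromosome 8 from 72319033 to 72321656) rose, with 172, 161 and 196 CPM in the WT libraries and 232, 237 and 231 CPM in the knockout libraries. The knockout libraries lay closer together than the WT libraries, with means of 177 ± 18.02 and 233 ± 3.55 CPM. The log2 fold change was 0.40 ± 0.06 (95% interval 0.26 to 0.54, adjusted p = 3.19e-04, edgeR), and all 16 alternatives kept the call.

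*Klf4*, the member of the trio that is used in reprogramming cocktails (ENSMUSG00000003032, chromosome 4 from 55527143 to 55532466), had 254, 271 and 305 CPM in the WT libraries and 323, 312 and 307 CPM in the knockout libraries. The groups were separated by less than 3 CPM, and on library-total CPM, without TMM, they overlapped. Its log2 fold change was 0.18 ± 0.06 (adjusted p = 0.0297, edgeR), and 8 of the 16 alternatives lost the call, among them the fit on library totals (0.13, adjusted p = 0.102). *Klf5*, which restrains primitive endoderm and supports the early epiblast (ENSMUSG00000005148, chromosome 14 from 99298691 to 99315036), had 241, 279 and 284 CPM in the WT libraries and 267, 252 and 262 CPM in the knockout libraries. All 3 knockout libraries of *Klf5* thus fell inside the WT range. Its log2 fold change was -0.04 ± 0.06 (95% interval -0.17 to 0.09, adjusted p = 0.606, edgeR), and none of the 16 alternatives called it.

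The balance within the trio was compared as a ratio inside each library. As FPKM within each library, *Klf2* stood to *Klf5* as 2.01, 1.63 and 1.95 in the WT libraries and as 2.44, 2.65 and 2.48 in the knockout libraries. *Klf4* stood to *Klf5* as 1.76 ± 0.0911 in WT and 2.06 ± 0.0563 in knockout libraries, and *Klf2* to *Klf4* as 1.05 ± 0.0685 and 1.23 ± 0.0370. The genotypes did not overlap in any of the 3 ratios (exact permutation test, p = 0.1 for each). These ratios do not depend on the scaling of the libraries, but their size rests on the listed lengths. Of the summed FPKM of the trio *Klf2* made up 40.2 ± 1.97% in WT and 45.2 ± 0.820% in knockout libraries, *Klf4* 38.1 ± 0.663% and 36.9 ± 0.507%, with overlap of the genotypes (exact permutation test, p = 0.2), and *Klf5* 21.7 ± 1.42% and 17.9 ± 0.504%.

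**Figure D2:**
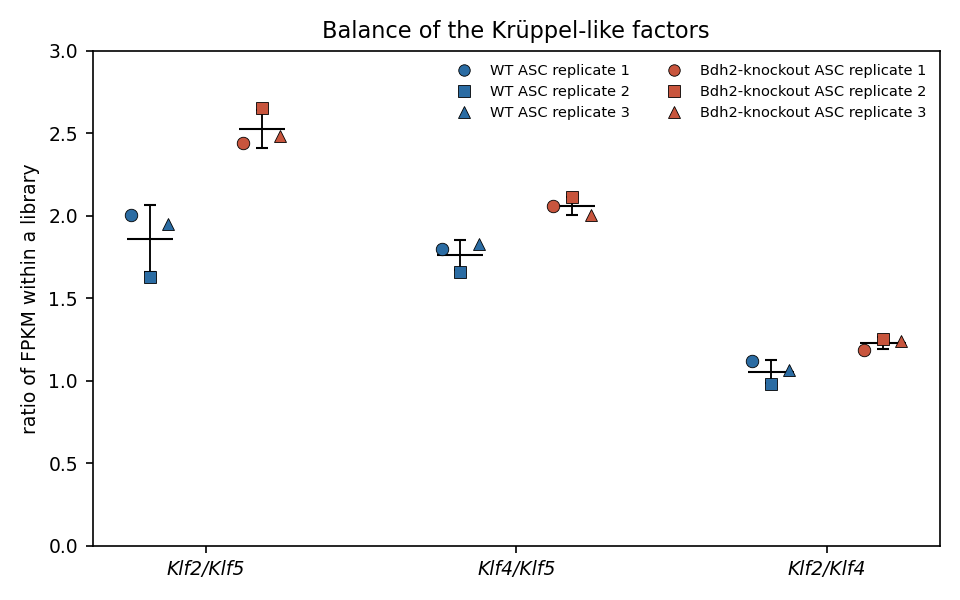
Ratio of FPKM between pairs of Krüppel-like factors within each library (y axis, linear from 0), for 3 pairs (x axis). Symbols are libraries, the horizontal marks are means and the bars SD (n = 3). For *Klf2*/*Klf5* the WT libraries lie between 1.63 and 2.01 and the knockout libraries between 2.44 and 2.65.

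*Tbx3*, a T-box factor that sustains naive cells and also acts in extraembryonic endoderm and in liver progenitors, had the second largest change. The gene (ENSMUSG00000018604) is on chromosome 5 from 119670669 to 119684724. It had 88.2, 85.7 and 94.7 CPM in the WT libraries and 133, 154 and 133 CPM in the knockout libraries, with knockout replicate 2 above its 2 companions. The log2 fold change was 0.64 ± 0.07 (95% interval 0.50 to 0.78, adjusted p = 8.57e-06, edgeR), and it stayed called in all 16 alternatives. An antisense gene, *Tbx3os1*, covers 1.74% of the exon bases of *Tbx3*, but it had only 8 to 20 counts in a library, where *Tbx3* had at least 1712. The text of the study does not say whether counting used strand.

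*Tfcp2l1* encodes a grainyhead-like factor that carries much of the output of LIF and STAT3 and whose promoter is printed above. The gene (ENSMUSG00000026380) is on chromosome 1 from 118627945 to 118685168. It had 499.5, 480 and 544 CPM in the WT libraries and 565, 593 and 555 CPM in the knockout libraries. Its log2 fold change was 0.17 ± 0.05 (95% interval 0.05 to 0.28, adjusted p = 0.0224, edgeR), with means of 508 ± 32.4 and 571 ± 20.2 CPM. The groups overlapped on library-total CPM, and 7 of the 16 alternatives lost the call.

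The zinc finger genes of the set moved unequally. *Prdm14* encodes a PR-domain protein that represses FGF signalling and DNA methyltransferases together with Polycomb proteins, and it also specifies germ cells. The gene (ENSMUSG00000042414) is on chromosome 1 from 13113457 to 13127163. It was the least abundant member, with 7.37, 8.22 and 8.47 CPM in the WT libraries and 10.7, 10.8 and 11.7 CPM in the knockout libraries. Its log2 fold change was 0.46 ± 0.10 (95% interval 0.25 to 0.67, adjusted p = 0.00213, edgeR). It had the widest interval of the members and the lowest counts, 143 to 295 in a library.

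*Zfp42* encodes REX1, a relative of YY1 that has long served as a reporter of the naive state although it is dispensable for it. The gene (ENSMUSG00000051176) is on chromosome 8 from 43295063 to 43306980. It had 533, 506 and 538 CPM in the WT libraries and 541, 547 and 547 CPM in the knockout libraries. The knockout libraries lay just above the WT libraries on this scale and overlapped with them on library-total CPM, where its log2 fold change turned to -0.00627. The log2 fold change was 0.05 ± 0.04 (95% interval -0.04 to 0.15, adjusted p = 0.376, edgeR), so neither a small increase nor no change can be told apart at this precision. Of the 50-base stretches of its longest transcript 9.17% also occur in the pseudogene *Zfp42-ps1*, which was counted at 8.16% to 10.1% of the counts of *Zfp42*. For *Zfp42-ps1* itself the log2 fold change was 0.13 ± 0.06 (edgeR, adjusted p = 0.123), and the sum of both gave 0.06 between the group means. Relative to *Zfp42* in the same library, *Nr0b1* stood at 0.193 ± 0.00999 of its FPKM in WT and 0.296 ± 0.00893 in knockout libraries, and *Tbx3* at 0.0484 ± 0.00154 and 0.0729 ± 0.00598, with no overlap of the genotypes (exact permutation test, p = 0.1).

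**Figure D3:**
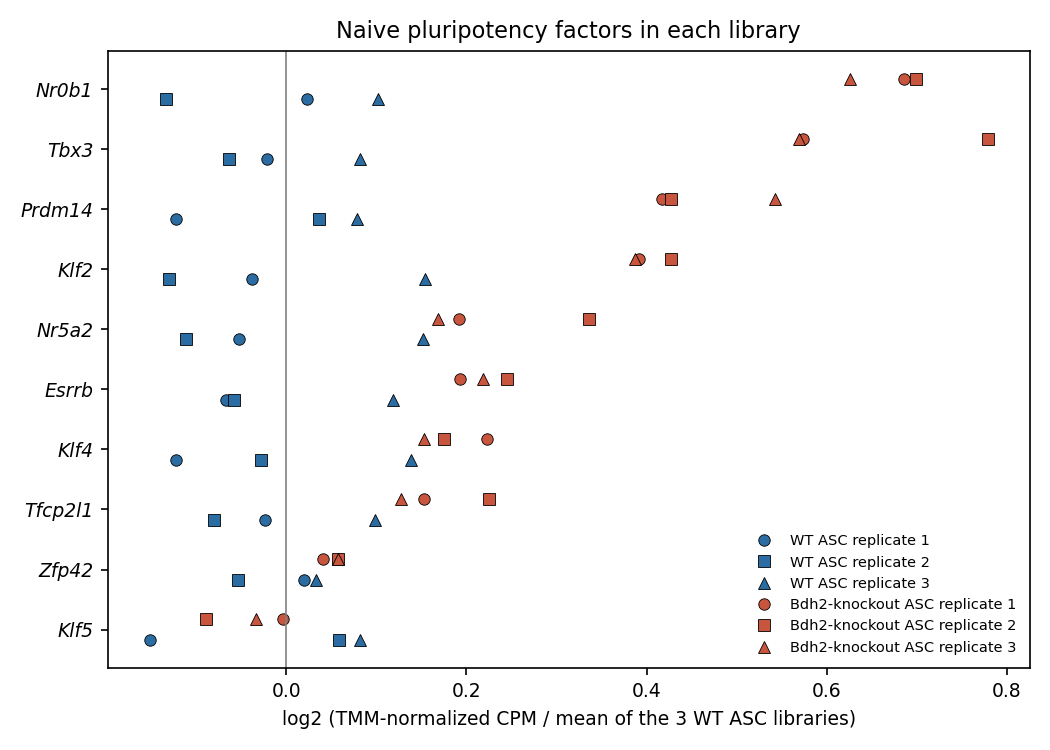
Log2 of the TMM-normalized CPM of each naive factor over the mean of the 3 WT libraries (x axis), with one row per gene and one symbol per library. WT replicate 3 is the highest WT library in all 10 rows. The knockout libraries lie to the right of all WT libraries except for *Klf5*.

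The position of each library was then followed across the members. In 9 of the 10 members every knockout library was above every WT library on TMM-scaled CPM, which was so for 26.3% of all tested genes. On library-total CPM this held for 5 members, *Klf2*, *Esrrb*, *Tbx3*, *Nr0b1* and *Prdm14*, and for 20.8% of all tested genes. Among the WT libraries replicate 3 was the highest for 10 of the 10 members, and for 9 of them on library-total CPM. This was the WT library with the lowest summed level of hepatocyte transcripts (39.2 CPM, compared with 538 and 326 CPM). Among the knockout libraries replicate 2, which had the most of these transcripts (146 CPM), was the highest for 6 members, and replicates 1 and 3 were the highest for 2 members each. The part of these transcripts in the order of the libraries was not tested. The coefficient of variation of the members was 3.22% to 10.2% in WT libraries and 0.658% to 8.50% in knockout libraries. Without WT replicate 3 the log2 fold changes were larger, for instance 0.73 for *Nr0b1* and 0.26 for *Klf4*, and 8 members were called.

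Compared per listed length of the gene, the members spanned about 2 orders of magnitude in WT libraries. This length is that of all merged exons, 5201 bases for *Klf5* against 3352 in its longest transcript, and 1808 in both for *Nr0b1*. The order below thus rests on the length used. *Zfp42* was the highest with a mean of 285 FPKM, followed by *Klf2* with 97.4 FPKM, *Esrrb* with 95.2 FPKM, *Klf4* with 92.4 FPKM, *Nr0b1* with 55.0 FPKM, *Tfcp2l1* with 54.8 FPKM and *Klf5* with 52.5 FPKM. *Tbx3* with 13.8 FPKM, *Nr5a2* with 13.2 FPKM and *Prdm14* with 3.19 FPKM formed the low end. Among all tested genes the level of *Zfp42* was at percentile 99.1 and that of *Prdm14* at percentile 49.5. Among neighbours in this order the WT libraries of *Klf2* overlapped with those of *Esrrb* and those of *Esrrb* with *Klf4*, as did *Nr0b1* with *Tfcp2l1*, *Tfcp2l1* with *Klf5* and *Tbx3* with *Nr5a2*.

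The order was the same in *Bdh2*-knockout ASCs, but there no pair of neighbours overlapped. *Nr0b1* stood at 84.1 FPKM, clear of *Tfcp2l1* at 59.2 FPKM, and *Tbx3* at 20.7 FPKM, clear of *Nr5a2* at 14.9 FPKM. *Klf2* stood at 124 FPKM, *Esrrb* at 106 FPKM and *Klf4* at 101 FPKM. On this scale of library totals, without TMM, the 10 members summed to 730 to 806 FPKM in WT and 839 to 857 FPKM in knockout libraries. The members took 0.254% to 0.281% of all counts in WT and 0.288% to 0.297% in knockout libraries.

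**Figure D4:**
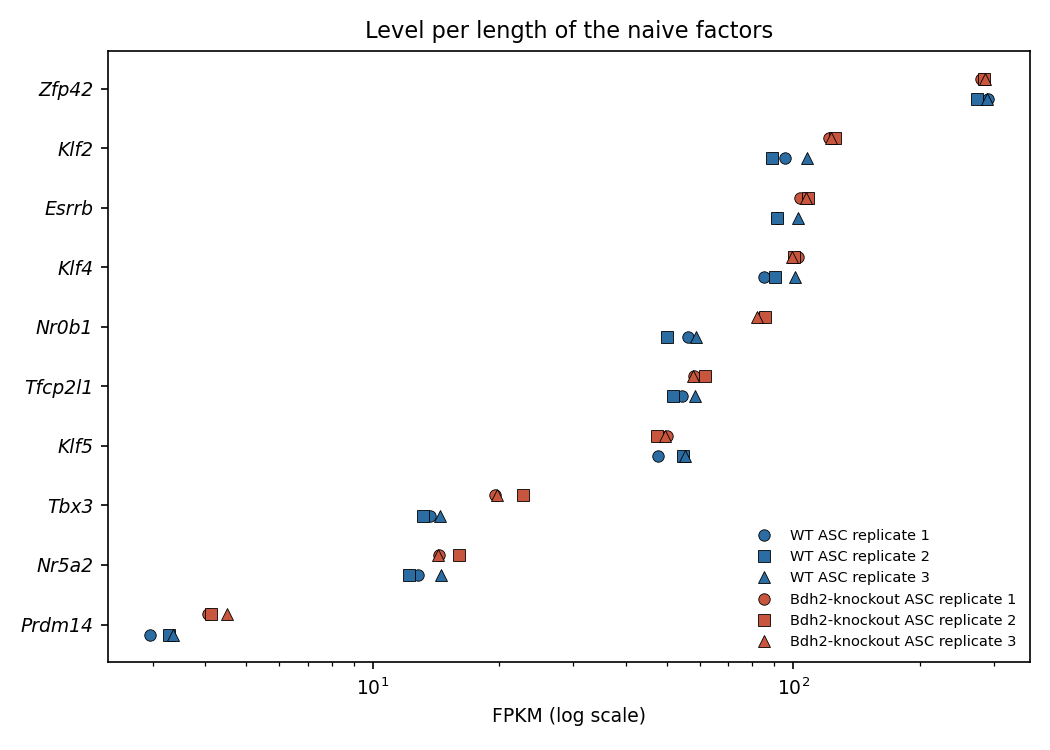
Level of each naive factor in FPKM from library totals, without TMM (x axis, log scale). There is one row per gene, with WT libraries in the lower and knockout libraries in the upper line of each row. The order of the 10 genes is the same in both genotypes, from about 285 FPKM for *Zfp42* down to 3.19 FPKM in WT and 4.22 FPKM in knockout libraries for *Prdm14*. The gaps after *Nr0b1* and *Tbx3* are wider in the knockout libraries.

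The closest relatives of the members were counted beside the 21% of all tested genes called higher and 20.8% called lower. Of 13 other Krüppel-like factors tested, 6 rose and 1 fell (median log2 fold change 0.15), and 10 of the family were above the level of *Prdm14*, the least abundant member. The largest increases were those of *Klf10* (0.28 ± 0.06, adjusted p = 0.00265), *Klf16* (0.24 ± 0.06, adjusted p = 0.00623) and *Klf8* (0.22 ± 0.05, adjusted p = 0.00520), all from edgeR and all smaller than that of *Klf2*. With the hepatocyte covariate 3 of the 13 were called higher, and with library totals 4 were called higher and 2 lower. Against a fold change of 1.2 it was 0 higher and 1 lower, where 2457 of all 16758 tested genes were called. *Klf15* fell, with a log2 fold change of -0.66 ± 0.08 and means of 29.3 ± 2.88 and 18.6 ± 0.736 CPM. In the family of *Tfcp2l1* 2 of 5 genes rose and 1 fell. *Grhl2*, an epithelial factor that opens enhancers on the way to the formative epiblast, rose by 1.04 ± 0.08 on the log2 scale (24.6 to 50.6 CPM), *Grhl3* by 0.33 ± 0.11, and *Tfcp2* fell to a log2 fold change of -0.64 ± 0.08. Only 1 gene of this family was called higher with library totals, with the hepatocyte covariate, without WT replicate 1, without knockout replicate 1 or without knockout replicate 3.

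Among 9 T-box factors tested 2 rose and 2 fell, close to the share of all tested genes. *Eomes*, a factor of mesendoderm and trophoblast, rose by 0.88 ± 0.07 on the log2 scale (21.7 to 40.0 CPM) and *Tbx20* by 0.76 ± 0.18, whereas *T* (Brachyury), a mesoderm factor, had a log2 fold change of -0.38 ± 0.10. Of the YY1 and PRDM relatives 4 of 11 rose and 1 fell, with *Prdm16* at 0.37 ± 0.12, *Yy1* at 0.32 ± 0.05 and *Prdm2* at 0.26 ± 0.05. Of the 5 nuclear receptor relatives listed only *Esrra* and *Nr6a1* could be tested, and *Nr6a1*, which represses *Pou5f1* during differentiation, was lower (-0.15 ± 0.05, adjusted p = 0.0304, edgeR). *Nr5a1*, *Nr0b2* and *Esrrg*, the nearest paralogs of *Nr5a2*, *Nr0b1* and *Esrrb*, had at most 3 counts in every library. The call of *Nr6a1* was lost without WT replicate 1 or 3 and without any of the 3 knockout libraries. Without knockout replicate 3 only 1 T-box factor was called lower and 2 of the YY1 and PRDM relatives higher, the latter also without WT replicate 2, and 2 of these relatives were called lower without WT replicate 1 or 2. With library totals in place of TMM the balance of the YY1 and PRDM relatives turned, with 2 higher and 3 lower.

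The signal pathways upstream of the factors were counted in the same way, beside 21% of all tested genes called higher and 20.8% lower, and differences between the lists were not tested. In the LIF and STAT3 list 2 of 13 genes rose and 3 fell, which is near that background, with a median log2 fold change of -0.02. *Socs3*, the feedback inhibitor and a direct target of STAT3, fell from 220 ± 11.2 to 153 ± 2.78 CPM (-0.52 ± 0.05, adjusted p = 6.57e-06, edgeR), and the target *Pim1* and the kinase *Jak1* were lower by smaller amounts (-0.20 for each). The receptor gene *Lifr* (0.14 ± 0.05, adjusted p = 0.0469, edgeR) and the target *Gbx2* (0.27 ± 0.09, adjusted p = 0.0212, edgeR) were higher, and *Stat3* itself was at 136 ± 11.4 and 141 ± 4.38 CPM (adjusted p = 0.508, edgeR). With library totals in place of TMM 0 genes of this list rose and 5 fell, with the hepatocyte covariate 0 and 4, and against a fold change of 1.2 0 and 1. Leaving out any library but WT replicate 3 left 0 or 1 gene called higher, and without knockout replicate 3 only 1 was called lower.

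In the GSK3, beta-catenin and TCF list 8 of 16 genes rose and 1 fell (median 0.15). *Tcf7l1*, the repressor of *Esrrb* and other naive genes, had the largest increase, from 26.6 ± 3.21 to 58.5 ± 3.56 CPM (1.13 ± 0.08, adjusted p = 3.82e-07, edgeR). The kinase gene *Gsk3b* (0.48 ± 0.05) and the TCF-family gene *Lef1* (0.44 ± 0.06) rose as well, and the Wnt antagonist *Nkd1* fell (-0.86 ± 0.13). Without WT replicate 2, and also without knockout replicate 2, 5 genes of this list were called higher, as with the hepatocyte covariate. It was 5 higher and 2 lower with library totals, and 3 higher and 1 lower against a fold change of 1.2. In the FGF and ERK list 13 of 24 genes rose and 4 fell (median 0.19). The receptor *Fgfr2* rose most (1.73 ± 0.20, from 1.21 to 4.03 CPM), followed by the phosphatase *Dusp4* (0.64 ± 0.05) and the ERK-responsive factor *Etv5* (0.49 ± 0.06), and the kinase genes *Mapk3* (-0.28 ± 0.05) and *Braf* (-0.25 ± 0.06) fell. The ligand *Fgf4* was among the genes that rose (0.32 ± 0.05). Against a fold change of 1.2, 4 genes of the FGF and ERK list were called higher and 0 lower. Without knockout replicate 3, 2 genes of this list were called lower. Without WT replicate 2, 2 genes of the GSK3 list were called lower.

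The naive factors can be set beside other genes of pluripotent cells. Of 10 core and general pluripotency factors 7 rose and 0 fell (median 0.27), with *Dppa2* (0.84 ± 0.06) and *Sall4* (0.66 ± 0.06) as the largest. Of all tested genes 21% were called higher and 20.8% lower. Against a fold change of 1.2, 2 genes of this list were called higher and 0 lower. With DESeq2, library totals, a mean count of at least 50 or the hepatocyte covariate, and without WT replicate 2, 1 gene of this list was called lower. Here *Pou5f1*, the gene of OCT4, was higher by little (1469 ± 69.5 and 1655 ± 31.3 CPM, 0.17 ± 0.05, adjusted p = 0.00883, edgeR). *Sox2* (402 ± 22.1 and 366 ± 13.0 CPM, adjusted p = 0.0578, edgeR) and *Nanog* (333 ± 14.5 and 319 ± 6.44 CPM, adjusted p = 0.361, edgeR) were not called. All 3 were high in every library.

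Other genes that mark the naive state went both ways, with 8 of 22 higher and 11 lower (median -0.18). Among all tested genes 21% were called higher and 20.8% lower. Against a fold change of 1.2 this list had 2 genes higher and 6 lower. *Zscan10* (0.86 ± 0.06), *Jam2* (0.66 ± 0.05) and *Tfe3* (0.37 ± 0.06) had the largest increases. The hormone precursor gene *Trh* had the largest decrease, from 1693 ± 133 to 670 ± 64.3 CPM (-1.34 ± 0.07, adjusted p = 3.25e-08, edgeR), followed by *Ooep* (-0.70 ± 0.06) and *Tfap2c* (-0.60 ± 0.07), a factor that opens naive enhancers. The 10 naive factors and this list thus had medians of opposite sign.

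Genes of the formative and primed epiblast, the stage that naive cells leave toward, rose in 13 of 16 cases and fell in 0 (median 0.57). The shares over all tested genes were 21% higher and 20.8% lower. Against a fold change of 1.2, 10 genes of this list were called higher and 0 lower. *Fgf5*, the classic marker of the primed epiblast, went from 0.439 ± 0.241 to 4.05 ± 0.155 CPM (3.14 ± 0.28, adjusted p = 2.78e-06, edgeR). *Pim2* rose by 2.04 ± 0.07 and *Pou3f1* by 1.21 ± 0.09 on the log2 scale. Both the naive factors and this list therefore held more genes called higher than lower in the same libraries. Among 8 cofactors and regulators of the naive factors 4 rose and 1 fell, with *Ncoa3*, the coactivator of ESRRB, at 0.57 ± 0.06, *Jarid2* at 0.43 ± 0.05, the ubiquitin ligase gene *Rlim* at 0.20 ± 0.05 and the Polycomb-associated *Mtf2* at -0.23 ± 0.05.

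**Figure D5:**
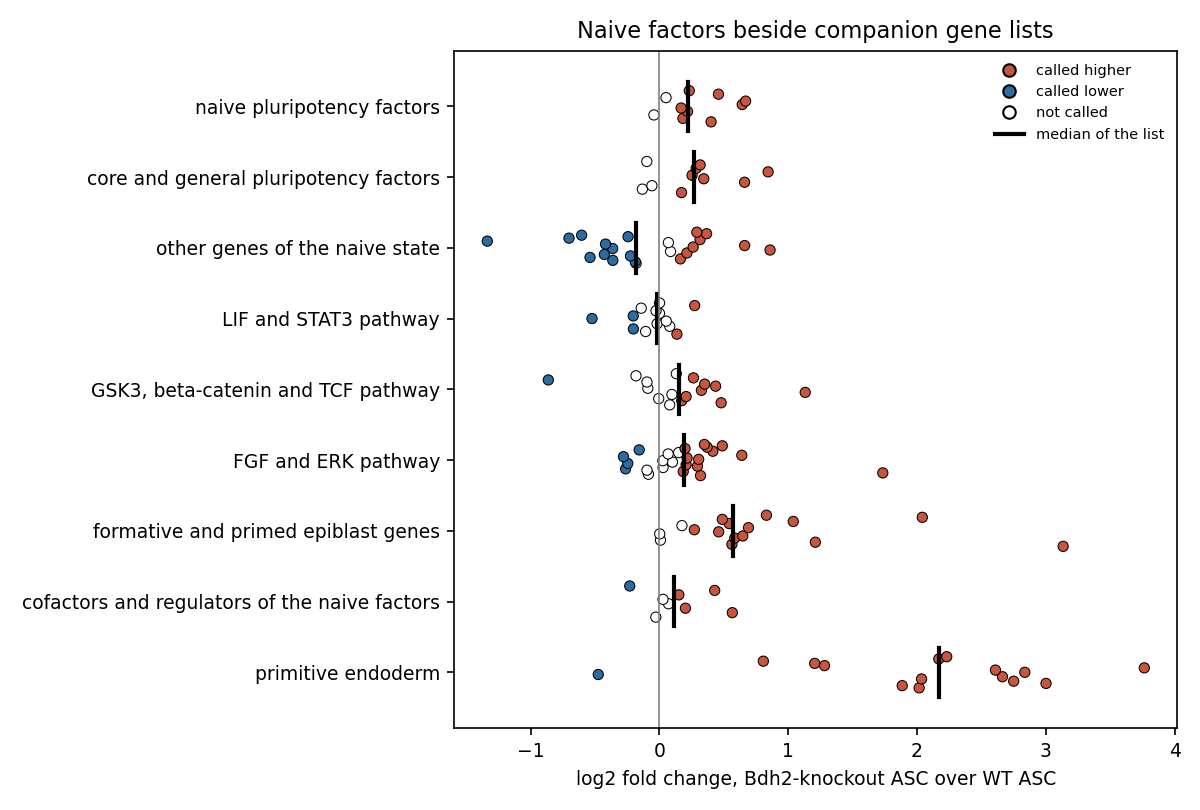
Log2 fold change, *Bdh2*-knockout over WT ASCs (x axis), of each tested gene in the naive factors and 8 other lists (rows). Points are genes, coloured by edgeR call, and the black bars are list medians. The naive factors have 8 calls to the right and 0 to the left, the other naive-state genes 8 and 11, and the primitive endoderm genes 14 and 1.

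Markers of other cell types were measured in the same libraries, beside the 21% of all tested genes called higher and 20.8% called lower. Of 15 primitive endoderm genes 14 rose and 1, *Hnf4a*, fell (median log2 fold change 2.17), and their summed level was 257 to 280 CPM in WT and 691 to 776 CPM in knockout libraries. *Cubn*, an uptake receptor of visceral endoderm, went from 0.959 to 13.2 CPM, and *Sox17*, an endoderm factor, from 1.28 to 10.3 CPM. None of the 15 stayed at or under 3 counts in all libraries. In bulk RNA more cells of a type and more RNA per cell cannot be told apart. *Tbx3* and *Nr5a2* are known to be active in endoderm too, and the part of such cells in their levels was not tested. Of the hepatocyte genes 15 of 18 were called lower in the knockout libraries and 0 higher, but all 18 overlapped between the genotypes, and their sum in knockout replicate 2 (146 CPM) was above that in WT replicate 3 (39.2 CPM). Fibroblast genes (6 of 8 tested, 0 higher, 2 lower) summed to 31.9 to 36.1 and 23.9 to 29.2 CPM, trophoblast genes (8 of 9 tested, 1 higher, 2 lower, with *Elf5* at no more than 3 counts) to 133 to 158 and 151 to 157 CPM, and germ cell genes (7 tested, 1 higher, 1 lower) to 132 to 135 and 113 to 123 CPM, in WT and knockout libraries respectively. Of 8 general markers of mouse embryonic stem cells 4 were higher and 1 lower, and their sum was 6392 to 6522 CPM in WT and 6543 to 6792 CPM in knockout libraries.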

How the data were processed

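Total RNA of WT and *Bdh2*-knockout ASCs was sequenced, 3 libraries each. The authors trimmed reads, mapped them to GRCm38 with HISAT2 (2.0.5 in the submitters' processing notes) and counted them with FeatureCounts. The deposited table holds raw counts and listed lengths for 54715 genes. The annotation release, strand setting and treatment of reads with several matches are not given in the sources used here. The labels name Trizol for RNA isolation and the study's methods a column kit. Coordinates of the 10 members were the same in the table and in GENCODE M21.

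Counts were tested with edgeR 4.0.16 in R 4.3.3 (TMM, filterByExpr, glmQLFit and glmQLFTest with genotype as factor), which had been tested on simulated data. DESeq2 1.42.0 and limma 3.58.1 (voom) were alternatives, beside other scalings and filters, a replicate block, a fold change of 1.2, a hepatocyte covariate and leaving out each library. The fit of 3 libraries was added after the data were seen. FPKM was computed here from the counts, library totals and listed lengths, without TMM. Intervals at 95% are from the edgeR fit. At 18927748 to 28333541 counts per library, floors cover counting error only. Single values were compared with two-sided exact permutation tests.

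All 10 members are named. In each companion list up to 3 increases and 3 decreases were named, those largest among genes with an adjusted p under 0.05 and a mean of at least 1 CPM, and *Stat3*, *Fgf4* and marker genes were named outside this rule after their values were seen. Some genes that the rule selects are not reported here. The members, the 12 companion lists and the 6 marker lists were chosen with earlier results of these data known.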

Additional observations from a re-analysis of the deposited data

How the results depend on the processing

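The number of naive factors called higher was 8 with DESeq2, limma-voom, median-of-ratios factors, no filter, a mean count of at least 50 and the replicate block, and the number called lower was 0 in every alternative. The number called higher was 5 with library totals without TMM, 3 against a fold change of 1.2, 4 with the hepatocyte covariate, and 5 to 8 with single libraries left out. Over all genes the calls numbered 2457 against a fold change of 1.2, compared with 6996, and 5613 to 7409 with single libraries left out. With library totals 2731 genes were called higher and 4451 lower (38.0% higher, compared with 50.3%). *Zfp42* had a log2 fold change of -0.00627 with library totals and *Klf5* one of -0.112 to 0.00303 with single libraries left out, with 0.00303 without WT replicate 3, and neither was called in any alternative. The cause of these differences was not tested. With the replicate number as a block 6452 genes were called and the 8 members kept their calls. The deviations of libraries with equal numbers correlated at -0.16, 0.05 and 0.21, so the numbers were not taken as pairs. *Prdm14*, with the fewest counts, had the largest SE of the members (0.10), and 3 libraries a group limited the exact tests to p = 0.1.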
